A study of Mus musculus with 6 samples.

Results

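The mRNA levels of 40 genes of the DNA replication fork were measured in osteoblast precursors with and without metformin. The genes were chosen by name, as the DNA polymerases, the clamp and its loader and the other proteins of the replisome, among the 54532 genes of the deposited table, and each name had 1 row. Earlier results of these data were known when the genes were chosen. DNA replication depends on a machine that is assembled at origins and then travels with the fork. The origin recognition complex (ORC, Orc1 to Orc6) marks the sites where the MCM helicase is loaded, the kinase Cdc7 with its partner Dbf4 acts on the loaded helicase, and Mcm10, Cdc45 and the GINS complex complete the active form. Polymerase α with its primase starts each strand, the clamp loader (replication factor C, Rfc1 to Rfc5) places the sliding clamp Pcna, and polymerases δ and ε extend. Replication protein A (Rpa1 to Rpa3) covers single-stranded DNA, Fen1, Dna2 and Lig1 finish Okazaki fragments, Timeless, Tipin and Clspn hold the fork together, and chromatin assembly factor 1 (Chaf1a, Chaf1b) puts histones on the new DNA. Many of these genes are transcribed around the entry into S phase under E2F factors, while several ORC subunits are kept at a steadier level through the cell cycle.

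MC3T3-E1 cells are a line of osteoblast precursors from the mouse. The 3 control samples were kept in osteogenic medium and the 3 metformin samples in the same medium with metformin, a biguanide used against diabetes. Metformin was used at 0.2 mM and induction lasted 3 days, and both groups share the β-glycerophosphate, ascorbic acid and dexamethasone of the medium. The line is 1 immortalised clone, and no group without osteogenic medium was analysed here. The study calls the samples biological replicates, but the labels do not say that they came from separate cultures, and p-values measure only the spread between them.

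Values are FPKM (reads scaled to the length of the gene and to a library size set for the sample), so that levels of different genes can be compared. The reads behind them, recovered from the values, came to between 18399861 and 22111790 a sample. The library size that the values imply differed from this read total, and scaling by the read total was run as an alternative. The 12681 genes that averaged at least 0.5 FPKM over the samples entered a limma-trend test on log2(FPKM + 1), and a gene was called at a Benjamini-Hochberg adjusted p under 0.05. For genes with a low FPKM this scale makes a change look smaller than it is. Control replicate 1 stood apart from the other controls (Pearson correlation across genes of 0.952 and 0.96, against 0.988 between replicates 2 and 3). The deviation of each control from the mean of the other controls followed GC content (Spearman rho across genes of -0.668, 0.411 and 0.635 for replicates 1 to 3). Each of these values draws on all 3 controls, so they do not show a trend of each control on its own. Calls of replisome genes that changed without control replicate 1 are given both ways. Of 9 osteoblast markers, all were detected. Runx2 had 28.6 to 34.2 FPKM in the controls and 25.8 to 27.45 with metformin. Sp7 had 36.8 to 47.1 FPKM in the controls and 52.1 to 54 with metformin. Col1a1 and Col1a2 were called higher with metformin, Ibsp and Spp1 lower and the other 5 not. Ibsp had 664 to 963.5 FPKM in the controls and 260.2 to 268.8 with metformin (log2 fold change -1.60). Spp1 had 6565 to 8357 FPKM in the controls and 2680 to 2727 with metformin (-1.50). The summed level of the 9 osteoblast markers was 11400 to 13400 FPKM in the controls and 8130 to 8622 with metformin. Col1a1 was called in 3 and Col1a2 in 4 of the 6 fits that left out 1 sample, and without control replicate 1 Sp7 was called higher (0.27, limma-trend adjusted p = 0.0230) and Bglap lower (-0.91, 0.00314). Sp7 was called higher in 4 of the 14 other settings tried. Among them were voom on the reads (voom adjusted p = 0.0474) and a GC correction (limma-trend adjusted p = 0.0204). Alpl, which encodes the alkaline phosphatase of osteoblasts, stayed at 2.44 to 3.84 FPKM over the 6 samples. The 4 endothelial and 4 adipocyte markers were at or under 0.12 FPKM in every sample, as were 4 of 6 macrophage and osteoclast markers. The other two of that list, Cd68 and Ctsk, were called lower with metformin. The summed level of that list, nearly all from Ctsk, was 244.8 to 272.6 FPKM in the controls and 149.8 to 162.9 with metformin, with Acp5 at 0 in every sample, and its part in the results was not tested.

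The promoters of the replisome genes were read first for the letters that E2F factors bind, since genes of this family are the classical targets of these factors. RefSeq promoters (GRCm38.p6, 250 bases before to 50 after each start) were given for 33 of the 40 genes. An E2F-type match (TTTCCCGC, TTTGGCGC, TTTCGCGC or TTTGCCGC, on either strand) lay in the promoters of 10 of the 33 genes, or 30.3%. The share was 4.94% among the 8967 tested genes with a listed promoter and 2.6% among all 27025 genes with one, and by promoters it was 24.4% of 41 against 2.26% of all 32851 of the same length. The 10 genes are printed as 30-base stretches on the strand of the gene, 5′ to 3′, with the match in capitals, because 8 of them rose with metformin while Orc3 and Pold3, which were not called, hold the same letters.
Orc1, chr4:108579416-108579445, plus strand: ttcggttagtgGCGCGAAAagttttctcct
Orc3, chr4:34614965-34614994, minus strand: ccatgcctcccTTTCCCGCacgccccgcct
Gins3, chr8:95633507-95633536, plus strand: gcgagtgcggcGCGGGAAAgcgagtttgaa
Pola1, chrX:93632275-93632304, minus strand: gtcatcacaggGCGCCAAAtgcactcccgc
Pold1, chr7:44548766-44548795, minus strand: cacggcggcgtatcttgtgGCGGGAAAagc
Pold3, chr7:100121467-100121496, minus strand: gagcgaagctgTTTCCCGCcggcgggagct
Pole2, chr12:69228162-69228191, minus strand: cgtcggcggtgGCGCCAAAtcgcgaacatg
Rfc3, chr5:151651195-151651224, minus strand: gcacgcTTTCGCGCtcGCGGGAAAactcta
Lig1, chr7:13278841-13278870, plus strand: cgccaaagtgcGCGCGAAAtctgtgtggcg
Clspn, chr4:126556990-126557019, plus strand: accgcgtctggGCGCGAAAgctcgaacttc

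Rfc3 held 2 matches in 1 stretch, and the matches of the other genes lay between position -138 (Pola1) and position 47 (Pold1) counted from the listed start. Among the genes with a listed promoter, 8 of 27 that were called higher held an E2F-type match and 2 of 6 that were not. A match is a description of the letters and says nothing of whether a factor binds there. The CCAAT box (CCAAT on either strand, read by NF-Y) was found in the promoters of 18 of the 33 genes (54.5%), against 43.5% of the tested genes and 41.1% of all genes with a listed promoter. Mcm10 had no E2F-type match in its window, and its last 100 bases before the start held 2 CCAAT boxes, in capitals here beside those of Clspn, one of the genes that rose most.
Mcm10, chr2:5012792-5012891, minus strand: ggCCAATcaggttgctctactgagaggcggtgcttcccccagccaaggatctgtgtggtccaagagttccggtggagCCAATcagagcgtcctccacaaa
Clspn, chr4:126556880-126556979, plus strand: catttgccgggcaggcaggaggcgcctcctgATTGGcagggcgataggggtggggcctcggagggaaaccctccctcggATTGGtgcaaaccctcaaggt

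The letters TTTGAA, part of the CHR element of genes expressed in G2 and mitosis, lay in the promoters of 6 of the 33 genes (18.2%, against 14% of the tested genes and 20.2% of all). GGGCGG, the GC box, lay in those of 24 (72.7%, against 70.6% and 38.2%).

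Most of the replisome genes were higher with metformin. Of the 40 genes, 34 were called higher, 1 (Orc5) was called lower and 5 (Orc2, Orc3, Orc4, Pold2 and Pold3) were not called. Over all tested genes 13.2% were called higher and 9.28% lower, and the median log2 fold change was 0.0053, against 1.15 over the 40 genes. The 3 metformin samples lay above the 3 controls for 36 of the 40 genes and below them for 2, where 23.6% and 20.5% of all tested genes did so. By the mean FPKM, 28 of the 40 genes had more than 2 times the control level with metformin and 9 had more than 4 times. The filter was passed by all 40 genes, but the control means of Fen1 and Dna2 were under 0.5 FPKM, and without them 32 of 38 were called higher. Without control replicate 1, 37 genes were called higher and 1 lower, where 23.4% and 20.4% of all tested genes were. With a correction for GC content 35 were called higher and 0 lower, where 16.3% and 19.2% of all tested genes were. In bulk RNA, more cells in S phase and more of these mRNAs in each cell cannot be told apart.

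**Figure D1:**
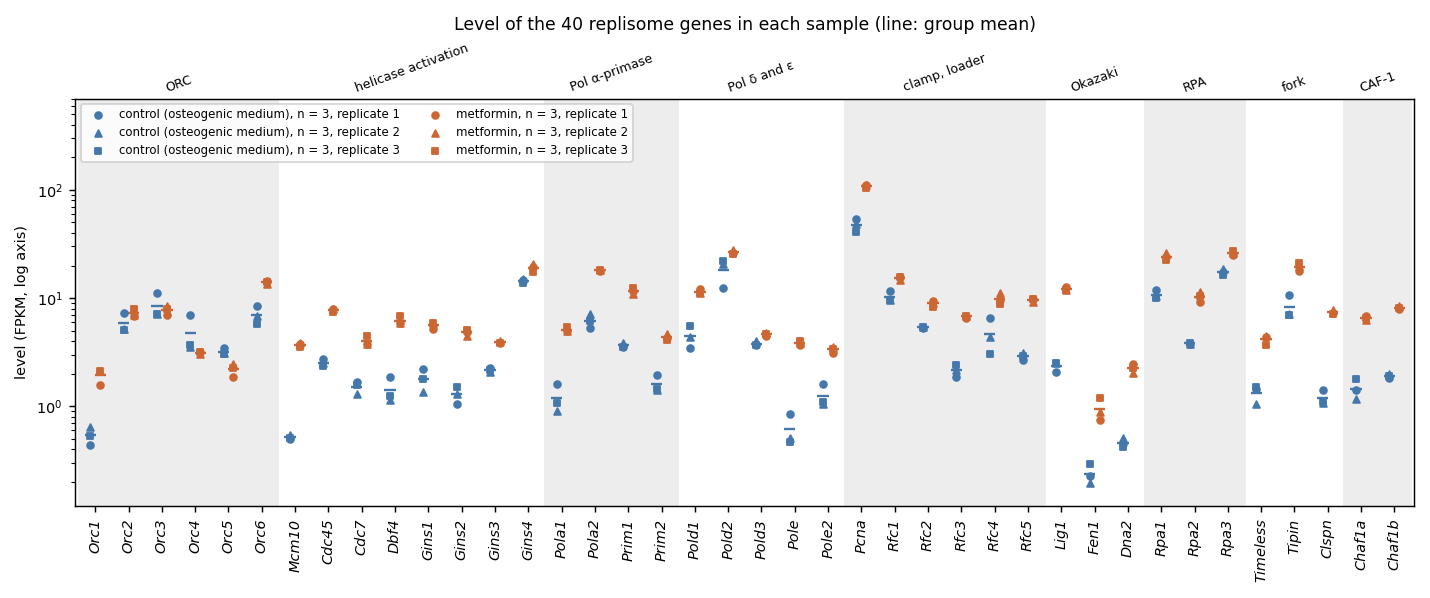
Level of each of the 40 genes in each of the 6 samples (y axis, FPKM on a log axis), ordered by functional group along the x axis, with controls in blue, metformin samples in orange and a line at each group mean. The metformin points lie above the control points for 36 genes, and the exceptions, Orc2 to Orc5, are all subunits of the origin recognition complex.

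Of the 6 subunits of the origin recognition complex, 2 were called higher and 1 lower, where 13.2% and 9.28% of all tested genes were. Orc1, the ATPase subunit whose level is known to change most through the cell cycle (chromosome 4, 108579423 to 108614833 in the coordinates of the table), had 0.441, 0.644 and 0.527 FPKM in the controls and 1.58, 2.12 and 2.11 with metformin. The lowest metformin sample was above the highest control, and the log2 fold change was 0.93 with an SE of 0.12 (limma-trend, adjusted p = 0.00229). These levels rest on 28 to 47 reads in a control and 109 to 161 with metformin. Orc6, the subunit least related to the others, had 8.54, 6.78 and 5.79 FPKM in the controls and 14.4, 13.4 and 14.2 with metformin, a log2 fold change of 0.91 with an SE of 0.13 (limma-trend, adjusted p = 0.00403).

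The 4 other subunits were not called higher. Orc2 had 7.33, 5.22 and 5.03 FPKM in the controls and 6.78, 7.03 and 7.87 with metformin, and the groups overlapped (log2 fold change 0.28, adjusted p = 0.213 by limma-trend). Control replicate 1 was the highest control, and without it Orc2 was called higher (0.42, adjusted p = 0.00569). Orc3 had 11.3, 7.08 and 7.16 FPKM in the controls and 6.93, 8.47 and 8.002 with metformin. Its groups overlapped too, and its log2 fold change was -0.09 with control replicate 1 and 0.11 without it, called in neither case.

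Orc4 had 7.01, 3.57 and 3.71 FPKM in the controls and 3.15, 3.06 and 3.17 with metformin. Each metformin sample was below each control, but control replicate 1 had by far the highest level, and the log2 fold change of -0.43 (adjusted p = 0.204 by limma-trend) came to -0.17 without it (adjusted p = 0.0824). Orc5 had 3.46, 3.11 and 3.03 FPKM in the controls and 1.87, 2.48 and 2.25 with metformin, also without overlap. It was the 1 replisome gene called lower (limma-trend, log2 fold change -0.39, SE 0.10, adjusted p = 0.0357). The pseudogene Gm15421 lies within it on the same strand, with 1.46 to 2.52 FPKM. The call was kept without control replicate 1 (adjusted p = 0.0313) and lost in each of the other 5 fits that left out 1 sample (adjusted p = 0.0573 to 0.14), with no filter on low values (0.10), with the replicate block (0.107) and with the GC correction (0.0675). The transcripts of Orc2 to Orc5 have GC contents of 36.8% to 44.4%, against a median of 49.5% over all tested genes, and the part of GC content in these values was not tested beyond that correction.

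The 8 genes of helicase activation were all called higher. Mcm10, which brings polymerase α to the helicase (chromosome 2, 4989714 to 5012791), had 0.498, 0.545 and 0.509 FPKM in the controls and 3.78, 3.82 and 3.54 with metformin. The metformin mean was 7.18 times the control mean, the largest ratio among the 40 genes, with a log2 fold change of 1.64 with an SE of 0.08 (limma-trend, adjusted p = 8.2e-05). The controls held 70 to 88 reads of it and the metformin samples 531 to 641. Dbf4, which activates the kinase Cdc7, averaged 1.42 ± 0.40 FPKM in the controls and 6.19 ± 0.52 with metformin (SD, n = 3 each, here and in what follows), and its log2 fold change was 1.58. Cdc7 itself went from 1.52 ± 0.18 to 3.98 ± 0.38 FPKM (0.98). Cdc45, which joins MCM and GINS in the active helicase, went from 2.54 ± 0.21 to 7.79 ± 0.29 FPKM (1.31).

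Within GINS, a complex of 4 different subunits, the changes differed in size. Gins1 went from 1.78 ± 0.43 to 5.65 ± 0.43 FPKM (log2 fold change 1.27), Gins2 from 1.29 ± 0.22 to 4.81 ± 0.33 (1.35) and Gins3 from 2.17 ± 0.09 to 3.90 ± 0.10 (0.63). Gins4 already had 14.7, 15.02 and 13.9 FPKM in the controls, several times the level of its partners, and had 19.4, 20.9 and 17.4 with metformin. Its groups did not overlap, but its log2 fold change of 0.38 with an SE of 0.09 (limma-trend, adjusted p = 0.0310) was the smallest of the genes called higher. The call was lost with the replicate block (adjusted p = 0.0799) and in 5 of the 6 fits that left out 1 sample (0.0534 to 0.137), all but the one without control replicate 1 (0.0133). Gins2 shares 2758 bases with Gse1 on the other strand, which had 4.63 to 8.95 FPKM, and the library kit does not mark strand.

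The 4 genes of polymerase α and primase, which lay down the primers, all rose, with log2 fold changes between 1.04 and 1.49. Pola1, the catalytic subunit (X chromosome, 93304767 to 93632155), had 1.59, 0.898 and 1.07 FPKM in the controls and 4.98, 4.93 and 5.38 with metformin, with no overlap and a log2 fold change of 1.49 with an SE of 0.13 (limma-trend, adjusted p = 0.000473). Prim1, the catalytic primase subunit, went from 3.65 ± 0.16 to 11.7 ± 0.69 FPKM (1.45). Pola2 went from 6.18 ± 0.94 to 18.2 ± 0.18 FPKM (1.43), and Prim2, the large primase subunit, from 1.60 ± 0.30 to 4.33 ± 0.29 (1.04). All 4 kept their call in each of the 14 alternatives run.

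Among the polymerases that extend the strands, the catalytic subunits had larger log2 fold changes than the accessory subunits of the same enzyme. Pole, the catalytic subunit of polymerase ε (chromosome 5, 110286306 to 110337474), had 0.854, 0.513 and 0.470 FPKM in the controls and 3.66, 3.88 and 4.03 with metformin. The metformin mean was 6.30 times the control mean and the log2 fold change 1.60 with an SE of 0.12 (limma-trend, adjusted p = 0.000257). Pold1, the catalytic subunit of polymerase δ, went from 4.45 ± 1.04 to 11.5 ± 0.50 FPKM (1.21), and Pole2 from 1.25 ± 0.32 to 3.35 ± 0.22 (0.96).

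Neither accessory subunit of polymerase δ in the list was called. Pold2 had 12.5, 20.5 and 21.8 FPKM in the controls and 26.4, 27.6 and 25.5 with metformin. No metformin sample overlapped the controls, but control replicate 1 lay well under the other controls, and the log2 fold change of 0.55 had an adjusted p of 0.0979 by limma-trend. Without control replicate 1 the log2 fold change was 0.31 (adjusted p = 0.00744), and with the GC correction 0.47 (adjusted p = 0.00487), so that Pold2 was called higher in both. Pold3, which binds the clamp, had 3.70, 3.99 and 3.65 FPKM in the controls and 4.48, 4.77 and 4.65 with metformin, again without overlap. Its log2 fold change was 0.24 with an SE of 0.08 (limma-trend, adjusted p = 0.0697), and it was called only without control replicate 1 (0.23, adjusted p = 0.0383).

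Pcna, the sliding clamp, had the highest level of the 40 genes in every sample, with 53.5, 48.9 and 40.7 FPKM in the controls and 111.8, 110.7 and 104.9 with metformin. The groups lay far apart, with a metformin mean 2.29 times the control mean and a log2 fold change of 1.19 with an SE of 0.12 (limma-trend, adjusted p = 0.000815). A stretch of 781 bases of its transcript is 99.2% identical to Pcna-ps2, which was at 1.02 FPKM or less in each sample.

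The 5 clamp loader genes were all called higher. Rfc5 (chromosome 5, 117378103 to 117389047) had 2.70, 3.13 and 2.94 FPKM in the controls and 9.84, 9.20 and 9.75 with metformin, the largest change in the group (limma-trend, log2 fold change 1.44 with SE 0.08, adjusted p = 0.000112). Wsb2, on the other strand, overlaps Rfc5 by 499 bases and had 20.1 to 27.3 FPKM. Rfc3 went from 2.14 ± 0.26 to 6.80 ± 0.16 FPKM (1.31) and Rfc2 from 5.38 ± 0.05 to 8.97 ± 0.59 (0.64). Rfc1, the large subunit, had the highest control level of the 5, 10.3 ± 1.14 FPKM, and the smallest log2 fold change, 0.54, with 15.4 ± 0.51 FPKM after metformin. The call of Rfc1 was lost narrowly without metformin replicate 1 (adjusted p = 0.0519) or metformin replicate 3 (0.0516). Rfc4 had 6.57, 4.35 and 3.05 FPKM in the controls and 9.57, 11.1 and 8.74 with metformin, a log2 fold change of 0.97 with the largest standard error of the called genes, 0.22 (adjusted p = 0.0237). Its call was lost without control replicate 2 (adjusted p = 0.0766), without any 1 of the metformin replicates (0.063 to 0.0963) and with no filter on low values (0.0631).

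**Figure D2:**
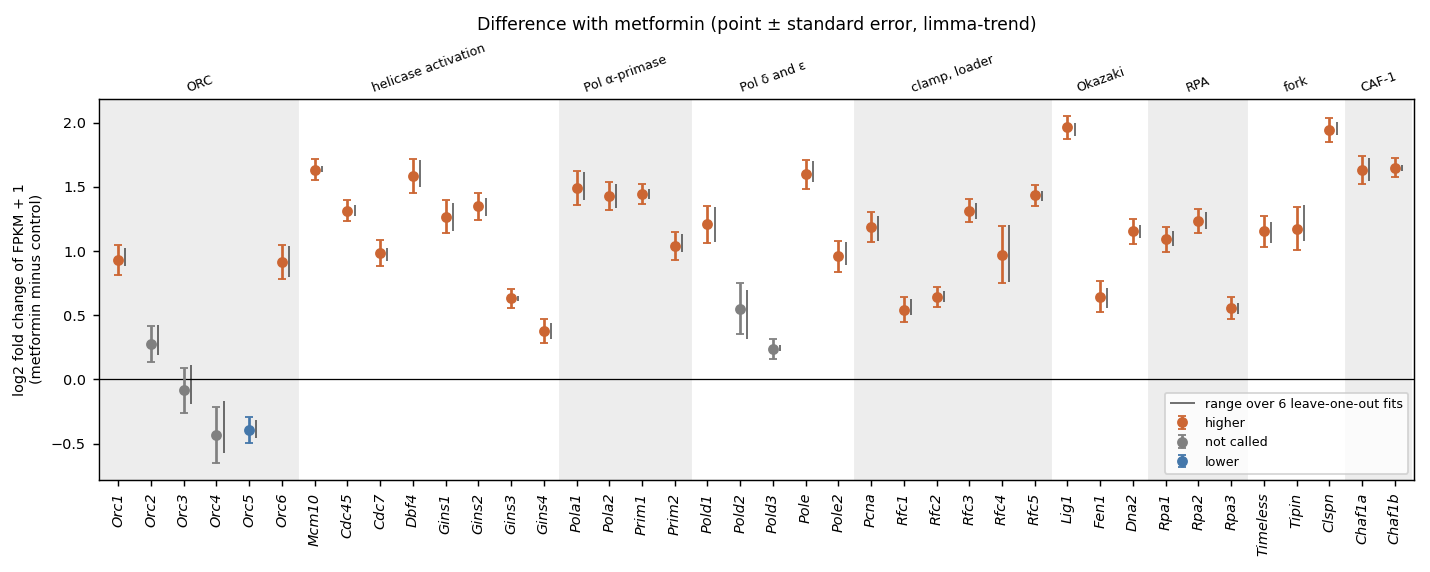
Log2 fold change of FPKM + 1, metformin minus control, for each of the 40 genes (points with standard errors, orange for genes called higher, blue for lower, grey for not called), with a black line for the range over the 6 fits that each left out 1 sample. Only Orc3, Orc4 and Orc5 lie under 0, and Lig1 (1.97) and Clspn (1.94) lie highest on this scale, but not with a pseudocount of 0.1, where Mcm10 (2.63) does.

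Of the genes that finish Okazaki fragments, Lig1, the ligase that seals them (chromosome 7, 13277283 to 13311433), had the largest log2 fold change of FPKM + 1 among the 40 genes. The order depends on the scale, since with a pseudocount of 0.1 Mcm10 (2.63), Clspn (2.55) and Pole (2.51) were above Lig1 (2.31), and without control replicate 1 Clspn (2.01) was above it (1.90). Lig1 had 2.08, 2.52 and 2.54 FPKM in the controls and 12.6, 12.01 and 11.9 with metformin, which gave a log2 fold change of 1.97 with an SE of 0.09 (limma-trend, adjusted p = 6.4e-05). Dna2, a nuclease and helicase, went from 0.461 ± 0.045 to 2.26 ± 0.23 FPKM (1.15). Fen1, the flap endonuclease, had the lowest level of the 40 genes in every sample, with 0.226, 0.197 and 0.294 FPKM in the controls and 0.749, 0.891 and 1.19 with metformin. It was called higher (log2 fold change 0.64, adjusted p = 0.0108) on 10 to 14 reads in a control and 36 to 56 with metformin. The transcript shares 1911 bases with Gm10143, which lies on the other strand across the gene and was at 0.0715 to 0.131 FPKM. Tmem258, also on the other strand, overlaps Fen1 by 156 bases and had 17.5 to 43.4 FPKM. How reads that fall in both genes were counted is not given in the sources used here, so the level of Fen1 is uncertain.

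The 3 subunits of replication protein A were all called higher. Rpa2, which is phosphorylated in response to damage (chromosome 4, 132768332 to 132778752), had 3.77, 3.78 and 3.88 FPKM in the controls and 9.16, 11.3 and 10.5 with metformin, which gave a log2 fold change of 1.23 with an SE of 0.09 (limma-trend, adjusted p = 0.000287). Rpa1, the large subunit that binds DNA, went from 10.8 ± 0.90 to 24.1 ± 1.86 FPKM (1.09). Rpa3 had the highest control level, 17.5 ± 1.14 FPKM, and the smallest change, to 26.2 ± 1.03 (0.55).

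Among the fork protection genes, Clspn, the adaptor through which the checkpoint kinase Chek1 is activated (chromosome 4, 126556935 to 126593903), had 1.40, 1.08 and 1.10 FPKM in the controls and 7.28, 7.77 and 7.19 with metformin. The metformin mean was 6.21 times the control mean, and the log2 fold change was 1.94 with an SE of 0.09 (limma-trend, adjusted p = 7.1e-05). Its partners Timeless and Tipin, which form a complex with each other, went from 1.33 ± 0.24 to 4.16 ± 0.44 FPKM and from 8.22 ± 2.12 to 19.6 ± 1.82 FPKM. The log2 fold changes were 1.15 for Timeless and 1.18 for Tipin, but the order turned with a pseudocount of 0.1 (1.59 and 1.26), and the ratios of the means were 3.14 and 2.38.

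Both genes of chromatin assembly factor 1 rose. Chaf1b (chromosome 16, 93883901 to 93906115) had 1.81, 1.996 and 1.91 FPKM in the controls and 7.86, 8.38 and 8.13 with metformin, which gave a log2 fold change of 1.65 with an SE of 0.08 (limma-trend, adjusted p = 6.5e-05). Chaf1a went from 1.46 ± 0.30 to 6.57 ± 0.30 FPKM (1.63). In the per-sample log2 ratio of Chaf1b to Chaf1a (of FPKM + 1) the groups overlapped, with 0.07 to 0.46 in the controls and 0.17 to 0.37 with metformin. The transcript of Chaf1a shares 2542 bases with Ubxn6 on the other strand, which had 1.71 to 3.94 FPKM.

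The unequal change within functional groups was described by the per-sample log2 ratio, of FPKM + 1, between the gene with the largest and the gene with the smallest log2 fold change of each group. The pairs were chosen on these values, so no test is given. That choice itself favours ratios in which the metformin samples do not overlap the controls. The lack of overlap in 8 of the 9 groups, all but chromatin assembly factor 1, is therefore not read as a result. With a pseudocount of 0.1 the gene with the smallest value was Orc5 in the origin recognition complex and Tipin in fork protection, and Chaf1a was above Chaf1b. The log2 ratio of Orc1 to Orc4 lay between -2.48 and -1.47 in the controls and between -0.69 and -0.38 with metformin, a difference of means of 1.36. The difference was 1.36 for Pole to Pold3, 1.26 for Mcm10 to Gins4 and 0.45 for Pola1 to Prim2.

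Genes with a lower control level tended to have a larger ratio of metformin to control. Across the 40 genes, the control mean FPKM and the ratio of means had a Spearman correlation of -0.770, a description across genes that share their libraries and in which the control level enters both measures. The levels within 6 of the 9 functional groups lay closer together in every metformin sample than in any control. The share of other sets of genes that do so was not computed, so this count is not read as a result. For the clamp with its loader the gap was very narrow, with a ratio of 16.98 to 28.44 in the controls and 15.25 to 16.89 with metformin. For fork protection the ratio was 6.26 to 7.61 in the controls and 4.02 to 5.82 with metformin. Among the 8 genes of helicase activation the highest gene, Gins4, was 27.3 to 29.5 times the lowest, Mcm10, in the controls, and the highest was 4.90 to 5.51 times the lowest with metformin. Within GINS alone the ratio was 9.24 to 13.9 in the controls and 4.47 to 5.19 with metformin, and among the 5 clamp loader genes it was 4.01 to 6.16 and 2.15 to 2.35. In replication protein A it was 4.22 to 4.94 and 2.30 to 2.76. The ratios of polymerase α and primase, of the Okazaki fragment genes and of chromatin assembly factor 1 overlapped between the groups.

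**Figure D3:**
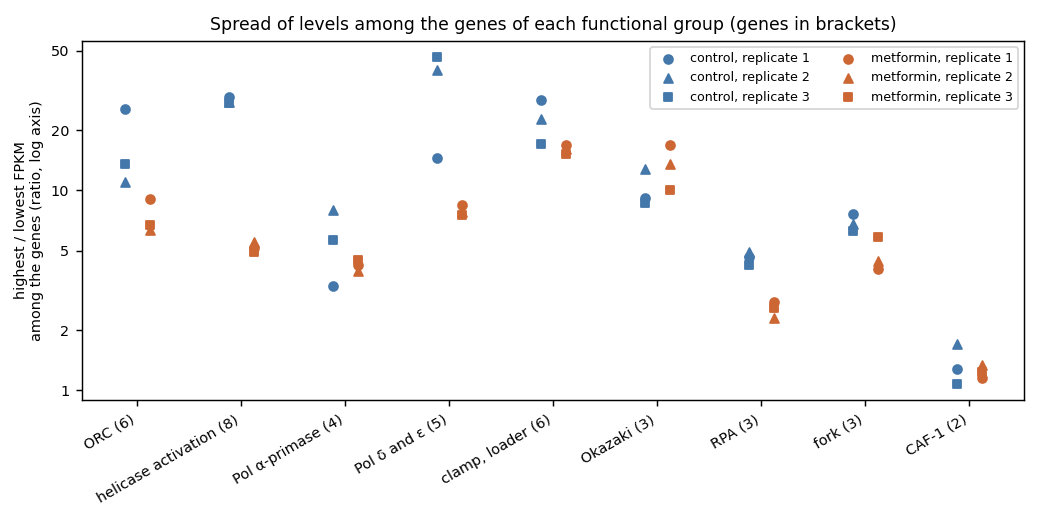
Ratio of the highest to the lowest FPKM among the genes of each functional group (y axis, log axis), with 1 point for each sample, controls in blue and metformin in orange. The metformin points lie under the control points in 6 of the 9 groups, most widely for helicase activation (4.90 to 5.51 against 27.3 to 29.5). How many other sets of genes do so was not computed, so the count is not read as a result. They lie only just under them for the clamp with its loader (15.25 to 16.89 against 16.98 to 28.44).

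Other genes of replication were placed beside the 40 as lists. Their counts stand beside 13.2% of all tested genes called higher and 9.28% called lower. The 9 genes of licensing (the MCM subunits, Cdc6, Cdt1 and its inhibitor Gmnn) were all called higher, with a median log2 fold change of 1.45. Mcm5 changed most (2.10) and Cdt1 least (0.51), with a call in 2 of the 6 fits that left out 1 sample. Of 14 firing factors and fork accessories, 10 were called higher and 0 lower, from Pclaf, a Pcna-binding protein, with 2.47, to Top1, the topoisomerase that relaxes the template, with -0.02 (adjusted p = 0.896 by limma-trend). Pold4, the smallest subunit of polymerase δ, was among those not called, with 20.04, 41.3 and 40.1 FPKM in the controls and 39.3, 38.6 and 36.5 with metformin. Pole3 and Pole4, the small subunits of polymerase ε, were called higher, with 0.42 and 0.50. Pole3 kept its call in 2 and Pole4 in 3 of the 6 fits that left out 1 sample, and both lost it with the replicate block (limma-trend adjusted p = 0.0870 and 0.0523). Of the 4 genes of alternative clamp loaders 3 were called higher, with the largest log2 fold change, 2.08, for Chtf18, and Chtf8 (0.42, adjusted p = 0.150 by limma-trend) was not. The value of Chtf8 was 0.21 without control replicate 1, and it was called with the GC correction (adjusted p = 0.0447). Ticrr, Rnaseh2b and Dscc1, all counted as higher, had control means under 0.5 FPKM and passed the filter only through their metformin values.

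The DNA polymerases of repair, of lesion bypass and of mitochondria formed another list. Of 14 genes 13 were tested, and the median log2 fold change was 0.04. In this list 2 were called higher (15.4%, against 13.2% of all tested genes) and 1 lower (against 9.28% of all tested genes). The share called higher was near that of all tested genes. The genes called higher were Polq, a polymerase of end joining, and Polh, which copies past ultraviolet lesions. Polq had a control mean of 0.366 FPKM and passed the filter only through its metformin values. Their log2 fold changes of FPKM + 1 were both 0.83, but the ratios of the means were 3.93 for Polq and 1.93 for Polh. Polg2, the accessory subunit of the mitochondrial polymerase, was called lower (-0.51, kept in 2 of the 6 fits that left out 1 sample and lost with the replicate block), while Polg, its catalytic partner, was at 6.01 to 7.52 FPKM in the controls and 6.28 to 7.28 with metformin. Polb, the main polymerase of base excision repair, was at 5.58 to 6.37 and 6.01 to 6.87 FPKM.

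Genes of G2 and mitosis were higher with metformin as well. All 10 such markers were called higher, against 13.2% of all tested genes. Their median log2 fold change was 2.40, from Cenpf with 1.81 to Top2a with 2.61. The order depends on the scale, since with a pseudocount of 0.1 Cdk1 (2.14) was lowest, Aurkb (2.90) highest and Cenpf at 2.61. The summed level of the 10 markers was 27.3 to 37.5 FPKM in the controls and 198.3 to 208.6 with metformin, with none at 0. The part of the share of dividing cells in the values of the 40 genes was not tested.

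**Figure D4:**
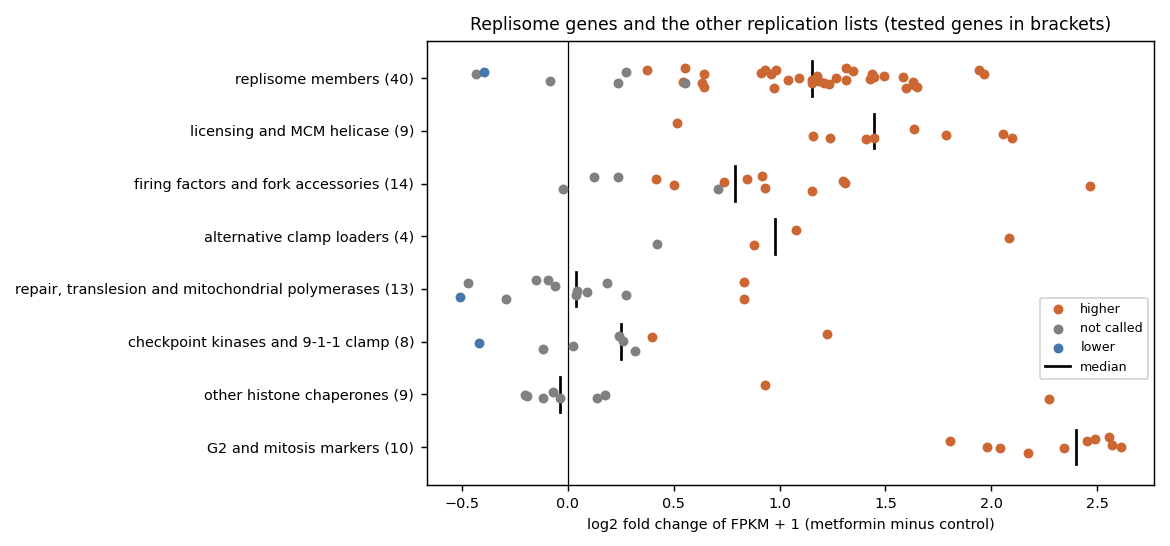
Log2 fold change of FPKM + 1, metformin minus control, of each tested gene in the replisome and in 7 other lists (number of tested genes in brackets), coloured by call, with a black line at each median. The medians are 1.15 for the replisome, 1.45 for licensing, 0.04 for the polymerases of repair, lesion bypass and mitochondria, and 2.40 for the markers of G2 and mitosis.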

How the data were processed

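RNA was sequenced from 3 control and 3 metformin samples of MC3T3-E1 cells. The authors deposited 1 table of FPKM values with a gene length in base pairs, whose definition is not given, and 0 other columns of per-sample values. The header names no unit. Multiplying a value by the gene length and dividing by the smallest unit of its sample gave a whole number of reads for 100% of the values above 0 (tolerance 0.001), and 3 reads were taken as the smallest amount shown (1.36e-05% to 1.63e-05% of a sample, counting error only). The submitters' processing notes name Bowtie 0.12.2 with the builds mm8 and mm9, but of the 54532 gene identifiers 53499 have the coordinates of GENCODE M21 (GRCm38), as do 39 of the 40 replisome genes. Pola2 is the exception. The authors used DESeq2 for their own comparison. The counting tool is not given in the sources used here.

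Genes with a mean of at least 0.5 FPKM were tested on log2(FPKM + 1) with limma 3.58.1 (trend, R 4.3.3), Benjamini-Hochberg adjusted over 12681 genes, two-sided, at 0.05. Other settings tried were total-read scaling, a pseudocount of 0.1, no low-value filter, a minimum of 10 reads in every sample, voom on the reads, the replicate block, a GC correction, both together, and leaving out each sample. On simulated reads for these genes, 175 of 200 changed genes and 20 unchanged genes were called for the comparison of metformin with control. The simulation gave all samples the same spread, with no outlying control and no GC trend. It therefore does not measure the error rate in these data. The 40 genes and all lists were chosen with earlier results of these data known. Per-sample values were given for the gene that changed most in each functional group and for each gene not called. Those of Orc5, Orc6, Gins4, Pcna, Rfc4, Fen1 and Pold4, and the second promoter stretch of Mcm10 and Clspn, were added after their values were seen. Transcripts at 95% identity over 200 bases were found with BLAST+ 2.17.0, and 24 of the 40 genes overlap another gene of the table. For 11 of the 40 genes an overlapping gene was over 1 FPKM in a sample. Beside Orc5, Gins2, Fen1 and Chaf1a these are Cdc45, Orc2, Orc4, Orc6, Rfc4, Rfc5 and Tipin. The part of the overlapping genes in these levels was not tested. The deviations from the group means of samples numbered alike correlated at -0.0533, 0.00027 and -0.0549, so no pairing by replicate number was seen. With 3 samples in a group and control replicate 1 apart from the others, this cannot exclude a pairing. A permutation test planned for gene pairs within functional groups is left out, since the pairs were chosen on the values tested. Figures were drawn with matplotlib 3.10.9.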

Additional observations from a re-analysis of the deposited data

How the results depend on the processing

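Of the 34 replisome genes called higher, 31 were called in each of the 14 alternatives, and the exceptions were Gins4, Rfc1 and Rfc4. The higher genes numbered 31 to 37 over the alternatives. The 1 lower gene became 0 with no low-value filter, with the replicate block, with the GC correction and with both, and was 0 to 1 over the 6 fits that each left out 1 sample. With the replicate block 33 of the 40 genes were higher, against 1161 genes higher and 698 lower over all tested genes. Without the block these were 1670 and 1177. With scaling by total reads 34 of the 40 genes were higher and 1 lower, against 1598 and 1330 over all tested genes. With the GC correction 2433 genes were lower and 2062 higher, and with the correction and the block 1888 were lower, and the share of calls that were higher was 45.9% with the GC correction alone and 58.7% without it. Leaving out 1 sample gave 938 to 2969 higher and 495 to 2590 lower genes, both largest without control replicate 1. The cause was not tested.

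The polymerases of repair, lesion bypass and mitochondria called lower were 1, and 0 with the replicate block, 3 with the GC correction, 2 with both, and 0 to 3 over the fits that left out 1 sample. Checkpoint genes called higher were 2, and 1 with no low-value filter or with the replicate block, and 1 to 4 when leaving out 1 sample. Those called lower were 1, 0 under the same 2 settings and 0 to 1 when leaving out 1 sample. Histone chaperones called higher were 2 to 4 when leaving out 1 sample, and those called lower were 0 to 1, and 1 with the GC correction. As Chaf1b over Chaf1a log2 ratio, difference of the group means, the value was 0.02, and it was -0.0827 with a pseudocount of 0.1 and -0.0714 to 0.125 when leaving out 1 sample.

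Otherwise signs reversed only for genes that were not called. Over the fits that left out 1 sample, the log2 fold change ran from -0.19 to 0.11 for Orc3, from -0.092 to 0.41 for Pold4, from -0.070 to 0.054 for Top1, from -0.0064 to 0.13 for Polg, from -0.017 to 0.14 for Rev1, from -0.28 to 0.056 for Rev3l, from -0.23 to 0.015 for Poll, from -0.037 to 0.12 for Rad17, from -0.11 to 0.062 for Cabin1 and from -0.91 to 0.12 for Bglap. With the GC correction, alone or with the replicate block, it was -0.037 for Rev1.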

Other observations

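Checkpoint genes and other histone chaperones were listed as well. Of 8 genes of the checkpoint kinases and the 9-1-1 clamp, 2 were called higher (25%, against 13.2% of all tested genes) and 1 lower (9.28% of all tested genes), with a median log2 fold change of 0.25. Chek1, the kinase that Clspn helps to activate, had 0.898, 0.813 and 0.593 FPKM in the controls and 3.07, 3.16 and 3.12 with metformin, a log2 fold change of 1.22 (adjusted p = 0.00036 by limma-trend). Atr, the kinase above it, had 0.564 to 0.830 FPKM in the controls and 0.909 to 1.13 with metformin and was not called (0.26, limma-trend adjusted p = 0.140). Atr was called higher without control replicate 1 (0.33, adjusted p = 0.0444) and with voom on the reads (0.59, adjusted p = 0.0378). Within the 9-1-1 clamp Hus1 was called higher (0.40) and Rad1 lower (-0.42), and Rad9a was not called (0.32, and 0.12 without control replicate 1). Hus1 kept its call in 1 and Rad1 in 2 of the 6 fits that left out 1 sample, and both lost it with the replicate block (limma-trend adjusted p = 0.0968 and 0.102).

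Of 9 other histone chaperones, 2 were called higher (22.2%, against 13.2% of all tested genes) and 0 lower (against 9.28% of all tested genes). Asf1b had 2.22 to 4.005 FPKM in the controls and 17.1 to 19.9 with metformin (log2 fold change 2.27), while its paralog Asf1a had 4.01 to 5.65 and 4.004 to 4.6 (-0.12, not called). Nasp, which carries histones H3 and H4, rose from 3.02 to 3.08 FPKM in the controls to 6.51 to 6.92 (0.93). Rbbp4, which also serves as a subunit of chromatin assembly factor 1, was not called (0.14, limma-trend adjusted p = 0.407, and called at 0.22 with 0.0415 without control replicate 1), with 13.1 to 16.3 FPKM in the controls and 15.1 to 17.1 with metformin.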
